A study of Mus musculus with 6 samples.

Results

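Neat1, Malat1 and the 3 paraspeckle proteins Sfpq, Nono and Pspc1 were followed in a mouse schwannoma line after knockdown of YAP. The 5 genes were taken by symbol from a table of 23366 genes, and all 5 were present and among the 12820 tested. The group was chosen by the measured level of Neat1, which was higher after YAP siRNA in these data, so Neat1 is described with no test. The other 4 were named for their role beside it.

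All libraries came from SC4, an Nf2-null mouse Schwann line isolated from schwannoma, a nerve sheath tumour. Nf2 encodes the tumour suppressor merlin, and its loss is common to both groups. Cells were transfected with control siRNA or with pooled siRNAs to YAP, a co-activator of transcription held back by Hippo signalling, and were lysed after 48 hours. There were 3 libraries per siRNA, numbered 1 to 3. Nothing in the labels says that these were independent cultures, and the p-values below then reflect the scatter among libraries alone, which could be technical.

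Paraspeckles are ribonucleoprotein bodies of the nucleus that are built on the long noncoding RNA Neat1. The gene gives a short polyadenylated RNA and a long RNA from the same start, and the long form is the scaffold that paraspeckles need. Sfpq, Nono and Pspc1 form one protein family, which binds RNA and DNA as dimers. Sfpq and Nono are needed to keep the long form and the body, while Pspc1 is a component that paraspeckles can form without. Malat1 is transcribed from the neighbouring gene, stays in the nucleus and gathers in nuclear speckles, the bodies that hold splicing factors.

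The ends of these RNAs are shown because poly(A) RNA was sequenced, and the ends differ in kind. The short form of Neat1 ends beyond a polyadenylation signal, AATAAA, in capitals in the first line. The long form and Malat1 are cut from a longer transcript ahead of a small tRNA-like RNA and carry an A-rich tract encoded in the genome in place of a poly(A) tail. That tract and a U-rich stretch before it are in capitals in the other lines, 60 bases each, 5′ to 3′, written with T.
Neat1 short form: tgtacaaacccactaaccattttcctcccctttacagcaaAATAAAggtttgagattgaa
Neat1 long form: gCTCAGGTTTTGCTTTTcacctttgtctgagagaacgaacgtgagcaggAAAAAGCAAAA
Malat1: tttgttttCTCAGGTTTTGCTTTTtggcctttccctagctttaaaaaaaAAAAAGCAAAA

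The long form and Malat1 shared a run of 16 bases, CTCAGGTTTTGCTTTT, and the tract AAAAAGCAAAA. Of 22803 genes of the table with a GENCODE transcript, 2 held both in their longest transcript, and these were Neat1 and Malat1. The stretch of 16 was found by comparing those 2 RNAs, so that count is a description. The line for Malat1 stops at base 6691 of an annotated transcript of 6983, because the annotation runs on past the tract. The annotated short form of Neat1 has 3004 bases and the long form 20771, and 99.0% of the short form's words of 31 bases also occur in the long form, between its bases 3 and 3172. A count for the gene can therefore hold reads of both forms, and the values below do not tell them apart.

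Sequencing depth and the check of the knockdown were as follows. The libraries held between 18025132 and 60078880 reads in genes. Yap1, the target, had a mean after YAP siRNA of 0.130 times the control mean (limma adjusted p = 0.118 without a replicate block and 4.5e-04 with it). It was at 0.197 of the same-numbered control in replicate 1, at 0.0997 in replicate 2 and at 0.0999 in replicate 3. Replicate 1 of both groups stood apart from replicates 2 and 3 on the first principal component, which held 63.5% of the variance, so values without it stand beside the differences of the members and the counts of the lists. Of 12 Schwann cell markers 9 had a mean of at least 10 normalized counts, but Sox10 and S100b, which define the lineage, were among the 3 that did not. The summed level of the 12 was 20860.3 to 22996 in the controls and 19377 to 24935 after YAP siRNA, and most of it was Ncam1. The 6 fibroblast markers summed to between 241216 and 512375 in the controls and to between 193697 and 376995 after YAP siRNA. Nearly all of that was Col1a1 and Col1a2, with control means of 212139 and 188451. Pdgfra had a control mean of 7995.5, while Thy1, Dcn and Lum had 109, 143 and 1.38. Leukocyte markers summed to at most 343 and endothelial markers to at most 271 in any library. With the replicate block limma called 1 of 9 Schwann markers higher, Erbb3 by 1.12 on the log2 scale, and 1 lower, Ngfr by −0.80 (adjusted p = 0.0261 and 0.00721). It called 2 of 5 fibroblast markers lower, Col1a1 by −0.46 and Dcn by −0.99 (adjusted p = 0.0260 and 0.0361), 1 of 4 leukocyte markers lower, Csf1r by −1.05 (adjusted p = 0.0253), and 0 of 3 endothelial markers. Over all genes tested, the same design called 8.32% higher and 8.96% lower, and without the block limma called 0 genes, these markers included. The called markers are named after their values were seen, and their part in the results below was not tested.

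Neat1 was higher in every library that received YAP siRNA. It had 6024, 6621 and 5809.8 normalized counts (reads of the gene divided by the library's size factor) in control replicates 1, 2 and 3. It had 7639, 14925 and 16505 in YAP siRNA replicates 1, 2 and 3. The groups did not overlap, and replicate 1 after YAP siRNA lay close above the controls while replicates 2 and 3 lay far above them. The means were 6152 ± 420.4 and 13023 ± 4729 (SD, n = 3). The ratio between same-numbered libraries was 1.27, 2.25 and 2.84 for replicates 1, 2 and 3. All log2 differences below are of log2(value + 1), and that of Neat1 averaged 1.01, with an SE of 0.297, or of 0.186 with the replicate number as a block. It was 1.34 without replicate 1 of both groups. Of all genes tested, 2.29% had a difference at least as high, 9.47% were higher and 9.49% lower with groups that did not overlap. Since Neat1 was chosen on this contrast, nothing is read from these shares. In bulk RNA, more cells that hold a transcript and more of it per cell cannot be told apart.

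**Figure D1:**
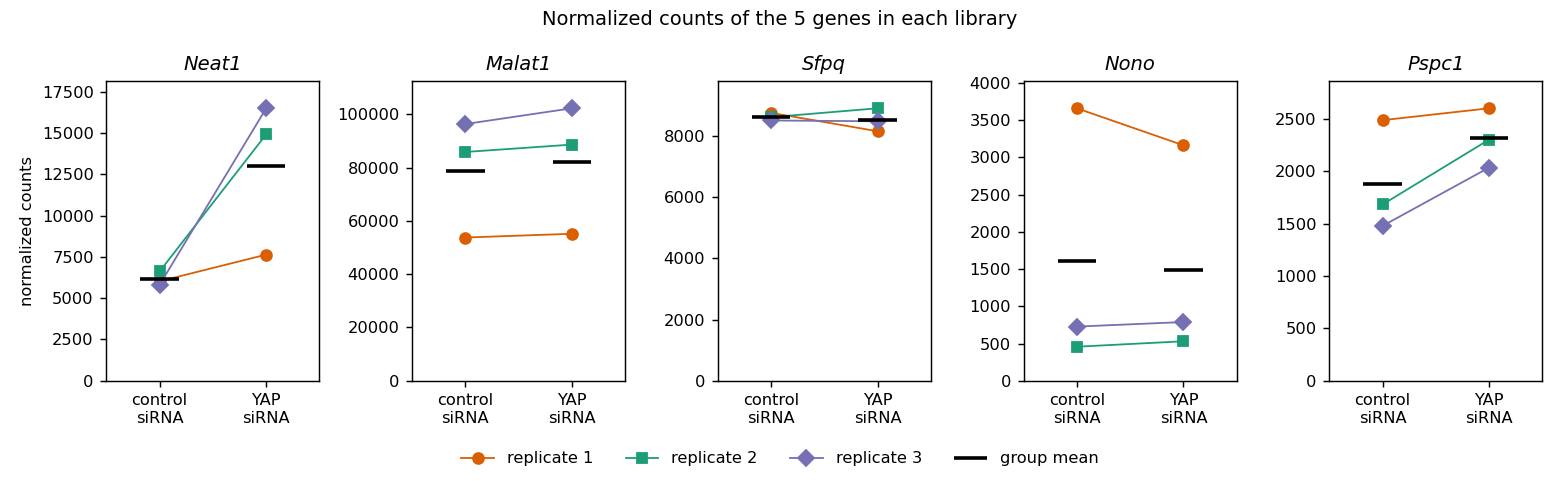
Normalized counts (vertical axes, each from 0) of the 5 genes under control siRNA and YAP siRNA; each marker is 1 library, lines join the libraries that share a replicate number and black bars are group means. For Neat1 all 3 lines go up, from 5809.8 to 6621 in the controls to 7639 to 16505 after YAP siRNA, while Nono is set apart by replicate 1 in both groups.

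The Neat1 difference was smallest in replicate 1. Among the controls replicate 1 was at 0.969 of the mean of replicates 2 and 3, so the 3 controls were alike. After YAP siRNA replicate 1 was at 0.486 of the mean of the others. The library with the lowest Neat1 after YAP siRNA was also the one with the most Yap1 left, at 936 normalized counts against 571 and 475; the part of this in the Neat1 difference was not tested. In the control libraries Neat1 varied little, with a coefficient of variation of 6.83%. Of the genes tested with a control mean of at least 10, 10.2% varied less. Neat1 was chosen on the contrast with these libraries, so that share is a description.

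Malat1, whose gene lies beside Neat1, had nearly the same level under both siRNAs within each replicate number. It had 53745, 85846 and 96331 normalized counts in control replicates 1, 2 and 3. It had 55154, 88620.2 and 102246 in YAP siRNA replicates 1, 2 and 3. The groups overlapped almost completely, and replicate 1 was the lowest library in each. Same-numbered libraries differed by factors of 1.03, 1.03 and 1.06, all slightly above 1. The log2 difference was 0.056, with a 95% interval from −0.71 to 0.82, or from −0.14 to 0.25 in the blocked design (limma adjusted p = 0.984 and 0.677). Without replicate 1 of both groups it was 0.066. The exact permutation test, two-sided, gave p = 0.7, where the smallest that 3 against 3 libraries can give is 0.1.

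The ratio of the 2 RNAs was lower after YAP siRNA. Malat1 had 8.92, 12.97 and 16.6 normalized counts for each of Neat1 in control replicates 1, 2 and 3. The ratio was 7.22, 5.94 and 6.19 in YAP siRNA replicates 1, 2 and 3, below every control. It rests on the values of Neat1 that chose the genes, so it is a description.

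Per length, Malat1 was among the most abundant RNAs in these poly(A) libraries. Malat1 and the long form of Neat1 carry an encoded tract in place of a poly(A) tail. How well such RNAs were captured was not tested, so the ranks below are not levels in the cells. In the controls it averaged 11262 normalized counts per kilobase of its longest annotated transcript, rank 45 of 12679 genes with a length. Sfpq followed at 2489 per kilobase, rank 552, then Nono at 630.0 and Pspc1 at 458. Neat1 was at 296 per kilobase over the long form, rank 5934, and would be at 2048, rank 757, if all its reads came from the short form. Its place among the 5 thus depends on which form the reads came from: below Pspc1 on the longer length and above Nono on the shorter. The order of Nono and Pspc1 was not fixed either, since Nono ranged from 178 to 1428 per kilobase in the controls and Pspc1 from 359.7 to 605.

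None of the 3 protein genes passed the test with all libraries. Sfpq, which encodes the family member that also acts in splicing and transcription, had 8754, 8614 and 8505 normalized counts in control replicates 1, 2 and 3. It had 8153, 8904 and 8478 in YAP siRNA replicates 1, 2 and 3. All 6 values lay within a narrow band and the groups overlapped. Its coefficient of variation among the controls was 1.45%, and 0.472% of the genes tested with a control mean of at least 10 varied less. The log2 difference was −0.020 (95% interval −0.28 to 0.24, limma adjusted p = 0.984; blocked, −0.21 to 0.17 and 0.888), and it turned above 0, to 0.022, without replicate 1 of both groups. The exact permutation test, two-sided, gave p = 0.7.

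Pspc1, which encodes paraspeckle protein 1, was higher after YAP siRNA in each pair of libraries, by less than Neat1. It had 2490.1, 1685 and 1479.99 normalized counts in control replicates 1, 2 and 3. It had 2604, 2305 and 2037 in YAP siRNA replicates 1, 2 and 3. Replicate 1 was the highest in each group, so the groups overlapped, while in replicates 2 and 3 the YAP siRNA libraries lay above both controls. The ratio within pairs was 1.05, 1.37 and 1.38. The log2 difference was 0.33 and did not pass the threshold of 0.05 (limma adjusted p = 0.637 unblocked, 0.0785 blocked; 95% interval −0.22 to 0.87 and 0.071 to 0.58). Without replicate 1 of both groups it was 0.46 and passed (limma adjusted p = 0.0155 unblocked and 6.0e-05 blocked). In that blocked design of 4 libraries 43.7% of all genes were called, 21.9% higher and 21.8% lower, and limma takes most of a gene's variance from the other genes. The exact permutation test of all 6 libraries, two-sided, gave p = 0.3.

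**Figure D2:**
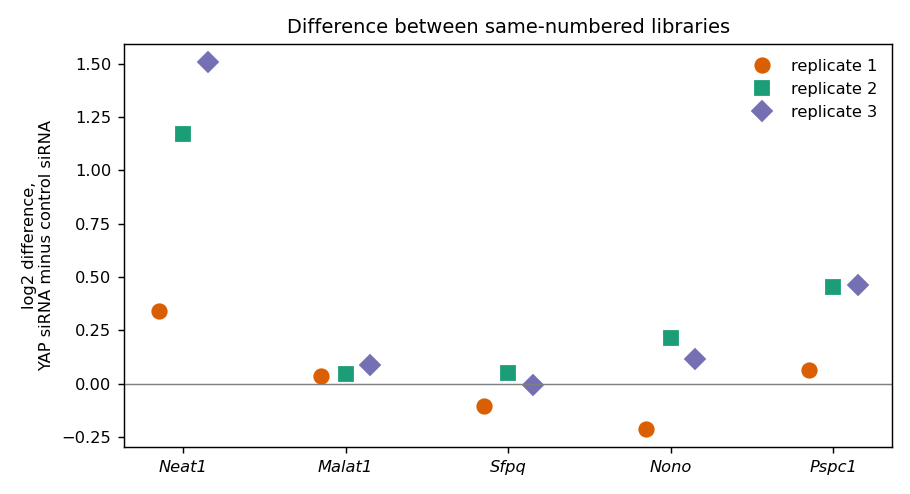
Log2 difference between the YAP siRNA and the control library of the same replicate number (vertical axis) for each of the 5 genes; each marker is 1 pair. Neat1 spans 0.34 to 1.51 and Pspc1 0.064 to 0.46, both lowest in replicate 1, while Malat1 and Sfpq lie near 0.

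Nono, the third protein gene of the family, differed more between replicate numbers than between siRNAs. It had 3659, 457 and 727 normalized counts in control replicates 1, 2 and 3. It had 3162, 529.8 and 788 in YAP siRNA replicates 1, 2 and 3. Replicate 1 was high and replicates 2 and 3 were low in both groups, and within each number the siRNAs were close, at ratios of 0.864, 1.16 and 1.08. The log2 difference was 0.040 (limma adjusted p = 0.995 unblocked, 0.846 blocked; 95% interval −2.26 to 2.34 and −0.24 to 0.32), and 0.16 without replicate 1 of both groups. The exact permutation test, two-sided, gave p = 0.9. Of the 4 members tested, limma thus called 0 with all libraries. It called 0% of all genes without the block, and with it 17.3%, of which 8.32% were higher and 8.96% lower. DESeq2 and edgeR also called 0 of the 4 members. DESeq2 called 5.64% of all genes without the block, 2.54% higher and 3.1% lower, and 19.8% with it, 9.4% higher and 10.4% lower. edgeR called 0% without the block and 19.3% with it, 9.28% higher and 10.1% lower. Because the group was chosen on this contrast, nothing is read from these shares.

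Replicate 1 had 6.18 times the Nono of the other controls and 4.80 times that of the other YAP siRNA libraries. On the log2 scale this gap was 2.48 over both groups, and 2.84% of the genes tested had a larger one in either direction. The libraries held between 523 and 2630 reads of Nono. The gap of the others was −0.54 for Neat1, −0.77 for Malat1, −0.030 for Sfpq and 0.46 for Pspc1. The level per kilobase of Sfpq was 1.77 and 1.91 times that of Nono in replicate 1 of the controls and of YAP siRNA. In replicates 2 and 3 it was 13.9 and 8.65 times in the controls, and 12.4 and 7.95 times after YAP siRNA.

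Nono also differs from the other members in how much of its sequence has copies elsewhere. Of its words of 31 bases, 37.6% also occur in annotated pseudogenes, against 1.31% for Malat1, 1.08% for Sfpq, 0.28% for Neat1 and 0% for Pspc1. Over the whole table the gap of replicate 1 moved with this share. Its median was −0.13 in 7673 genes that share nothing and 0.094 in 4171 genes that share up to 10%. It was 1.16 in 555 genes that share 10 to 30%, and 1.53 in 280 genes that share more. Counts of Nono are thus uncertain, since how reads with several matches were counted is not given. Whether this accounts for the level of Nono in any library was not tested.

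**Figure D3:**
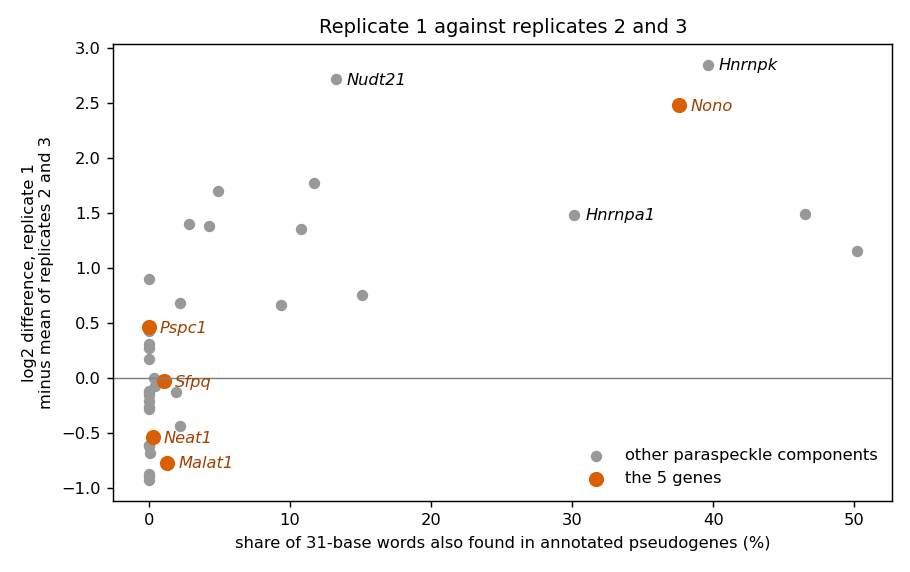
Log2 difference of replicate 1 from the mean of replicates 2 and 3, over both groups (vertical axis), against the share of a gene's 31-base words found in annotated pseudogenes (horizontal axis, percent); orange points are the 5 genes and grey points are other paraspeckle components. Nono lies at 37.6% and 2.48, beside Hnrnpk, and the other 4 genes lie below 2% and between −0.77 and 0.46.

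Other components of paraspeckles seldom passed the test. A gene is called below, and said to have risen or fallen, where it passed an adjusted p of 0.05 in limma with the block; without the block limma called 0 of all 12820 genes in either direction and edgeR 0, DESeq2 called 722, and 1558 had an unadjusted p under 0.05 in limma. With the block but no variance trend in limma, 30 of all genes and 0 genes of any list below were called. All 35 listed components were tested, and 1 was higher and 0 lower, where 8.32% and 8.96% of all genes were called. Their median log2 difference was −0.024, against 0.0094 over all genes, and the values ran from −0.51 to 0.68. The gene that rose was Rbm4b, which encodes an RNA-binding protein that takes part in splicing. It had 144, 204 and 246 normalized counts in the controls and 210.4, 337 and 365 after YAP siRNA, a log2 difference of 0.61 with an SE of 0.167 (limma adjusted p = 0.0397 blocked, 0.512 unblocked). It was higher in each pair, by factors of 1.46, 1.65 and 1.48, and lost its call without replicate 2 or without replicate 3 of both groups (limma adjusted p = 0.313 and 0.164, blocked), and also with no filter on low values (limma adjusted p = 0.0595, blocked). In the blocked design without replicate 1, 2 of 35 were higher, Rbm4b and Tardbp, where 21.9% of all genes were higher. In it 7 were lower, Smarca4, Cpsf6, Cirbp, Ss18l1, Akap8l, Zfp335 and Bcl6, where 21.8% of all genes were lower.

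Among these components 11 of 35 were more than 2-fold higher in replicate 1, as Nono was, and 0 were more than 2-fold lower. Over all genes tested 8.48% were that much higher and 11.7% that much lower. The following were chosen after their values were seen. Hnrnpk, which encodes an RNA-binding protein that favours the long form of Neat1, had 3202, 281 and 595 normalized counts in control replicates 1, 2 and 3. It had 3089, 426 and 511 in YAP siRNA replicates 1, 2 and 3, so replicate 1 was again high whichever siRNA was given. Nudt21, a subunit of the cleavage factor that acts at the end of the short form, had 119.9, 4.68 and 35.5 in the controls and 138, 18.2 and 37.7 after YAP siRNA. The share of words found in pseudogenes was 39.6% for Hnrnpk and 13.3% for Nudt21. It was lower, at 2.85%, 4.93% and 4.29%, for Tardbp, Hnrnpr and Rbmx, which were also more than 2-fold higher in replicate 1. Rbm3 shared 15.1% and had a log2 gap of 0.75. The part of this share in the gaps was not tested.

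Splicing factor and nuclear speckle genes, the company of Malat1, gave 0 higher and 0 lower of 24 tested, beside 8.32% and 8.96% of all genes, with a median log2 difference of −0.035. The most abundant were Srrm2 and Son, which encode the proteins that form the core of nuclear speckles. Srrm2 had 31139, 22671 and 19458 normalized counts in the controls and 29097, 18594 and 18527 after YAP siRNA, a log2 difference of −0.15, or −0.18 without replicate 1 (blocked limma adjusted p = 0.249 with all libraries). Son had 24559.9, 19121 and 17495 in the controls and 24186, 19107 and 18797 after YAP siRNA, a difference of 0.027, or 0.051 without replicate 1. In both genes the groups overlapped and replicate 1 was the highest library of its group, the reverse of Malat1. In the blocked design without replicate 1, 3 of 24 were called higher, Srsf1, Luc7l3 and Clk1, and 2 lower, Srrm1 and Srsf4, beside 21.9% and 21.8% of all genes.

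Genes near Neat1 and Malat1 on mouse chromosome 19 went both ways. The order of genes is that of RefSeq on GRCm38.p6, in which Frmd8 is the next protein-coding gene beyond Neat1. Of 16 listed genes of the region, all tested, 2 were higher and 3 lower, beside 8.32% and 8.96% of all genes, and the median log2 difference was −0.14. Frmd8, which encodes a partner of the iRhom proteins that carry the sheddase ADAM17, is described for its position after its values were seen. It had 5699.5, 3885 and 3518 normalized counts in the controls and 4836, 5992 and 6069 after YAP siRNA, so it was lower in the pair of replicate 1 and higher in the others. Its log2 difference was 0.39 (blocked limma adjusted p = 0.152). Without replicate 1 of both groups it was 0.71 and passed (limma adjusted p = 2.0e-14 blocked, 6.3e-04 unblocked). In that blocked design of 4 libraries 43.7% of all genes were called. Without replicate 2 or replicate 3 of both groups the difference of Frmd8 was 0.27 and 0.19 and did not pass (blocked limma adjusted p = 0.551 and 0.504).

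On the side of Malat1, Ltbp3, which encodes a binding protein of latent TGF-beta, fell by 0.84 on the log2 scale (blocked limma adjusted p = 0.00775), and fell by 1.07 without replicate 1. On the side of Neat1, Syvn1, an enzyme of protein degradation at the endoplasmic reticulum, fell by 0.38 (blocked limma adjusted p = 0.0244). On the side of Malat1 again, Rela, which encodes the NF-kappaB subunit p65, rose, from 2801, 2499 and 2459.6 to 3912, 4798 and 4848 normalized counts, in groups that did not overlap (log2 difference 0.80, SE 0.115, blocked limma adjusted p = 0.00445). Map3k11, a kinase of the JNK pathway, rose by 0.45 (blocked limma adjusted p = 0.0449). Each of these 4 lost its call without replicate 2 of both groups, and without replicate 3 Rela and Ltbp3 were still called. With the block and without replicate 1, 3 of 16 genes were called higher, Rela, Map3k11 and Frmd8, beside 21.9% of all genes. In the same design 6 were lower, among them Ltbp3, Syvn1, Capn1, Sssca1 and Sipa1, beside 21.8% of all genes.

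**Figure D4:**
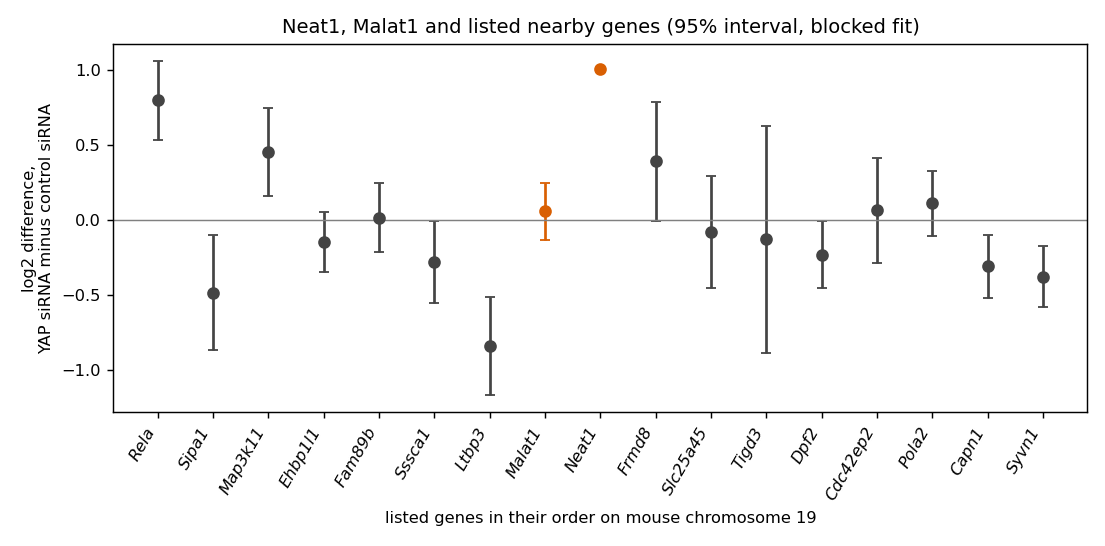
Log2 difference between YAP siRNA and control siRNA (vertical axis) for Neat1, Malat1 (orange) and listed nearby genes (grey) in their order on chromosome 19, not to scale; bars are 95% intervals of limma with the replicate block, not drawn for Neat1, which was chosen for its difference. Neat1 at 1.01 stands between Malat1 at 0.056 and Frmd8 at 0.39.

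Other long noncoding RNAs were set beside Neat1 as RNAs of its class. Neat1 was chosen on this contrast, so its place among them is a description. Of 31 listed, 27 reached the mean for testing, and Meg3, Rian, Mirg and Snhg11 did not. Among the 27, 0 were higher and 2 lower, beside 8.32% and 8.96% of all genes, with a median log2 difference of 0.021. Peg13, an imprinted noncoding RNA, had 964, 1956 and 1596 normalized counts in the controls and 881, 1089.9 and 1044 after YAP siRNA (log2 difference −0.53, SE 0.145, blocked limma adjusted p = 0.0398). The RNA listed as 6720401G13Rik, also named Firre, which is known for its part in nuclear organisation, had 859, 595 and 620.2 in the controls and 617, 429 and 401 after YAP siRNA (log2 difference −0.53, blocked limma adjusted p = 0.0268). Neither was called without replicate 2 or without replicate 3. A log2 difference above the 1.01 of Neat1 was seen in 2 of the 27, beside 2.29% of all genes tested with one at least as high. The 2 were H19 and Hotair, both at low counts and named after their values were seen. H19, an imprinted RNA, had 1.52, 32.7 and 13.8 normalized counts in the controls and 7.21, 37.3 and 61.8 after YAP siRNA (log2 difference 1.32, blocked limma adjusted p = 0.120). Hotair, an RNA from the HoxC cluster, had 9.10, 14.03 and 31.3 in the controls and 32.5, 31.3 and 54.3 after YAP siRNA (log2 difference 1.20, blocked limma adjusted p = 0.0763). In both the groups overlapped and each pair was higher after YAP siRNA. With the block and without replicate 1, 5 of 27 were higher and 4 lower, beside 21.9% and 21.8% of all genes. The higher ones were H19, Gas5, Snhg5, 1500012F01Rik (Zfas1) and 1700020I14Rik (Cyrano), and the lower ones Miat, Pvt1, Peg13 and 6720401G13Rik.

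Genes known to act on the transcription or processing of Neat1 gave 1 higher and 2 lower of 20 tested, of 21 listed, beside 8.32% and 8.96% of all genes, with a median log2 difference of 0.010. Hnrnpk, Nudt21 and Cpsf6 stand in this list and in that of paraspeckle components. Atf2, a transcription factor reported to activate Neat1, rose. It had 1155, 2322 and 2075 normalized counts in the controls and 1639.7, 3241 and 3255 after YAP siRNA, higher in each pair by factors of 1.42, 1.40 and 1.57 (log2 difference 0.55, SE 0.0949, limma adjusted p = 0.00831 blocked, 0.636 unblocked). Epas1, which encodes the hypoxia factor HIF-2alpha, another reported activator, fell. It had 376, 3491 and 3791 in the controls and 335, 1443 and 1498 after YAP siRNA, so it was low in replicate 1 under both siRNAs (log2 difference −0.93, SE 0.211, limma adjusted p = 0.0214 blocked, 0.812 unblocked). Its ratio within pairs was 0.891, 0.413 and 0.395, nearest to 1 in replicate 1. Cstf2, a cleavage and polyadenylation factor, fell by 0.45 (blocked limma adjusted p = 0.0277). None of the 3 was called without replicate 2 of both groups, and without replicate 3 Cstf2 was not called. With the block and without replicate 1, 3 of 20 were called higher, Atf2, Trp53 and Arnt, and 3 lower, Epas1, Cstf2 and Cpsf6, beside 21.9% and 21.8% of all genes.

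The genes whose pattern was most like that of Neat1 over the 6 libraries were Ets2, Gtf2h4, Tnfrsf1b, Tbc1d30 and Sh3rf1, with Pearson correlations of 0.998 to 0.995. The search covered 11224 genes whose mean reached 50, but symbols of numbered loci were skipped when the most similar genes were picked. The 6 points share their libraries and fall into groups, so these values describe likeness only. Ets2, a transcription factor of the ETS family, had 5772, 5932 and 5761 normalized counts in the controls and 7002, 12412 and 13325 after YAP siRNA. Its ratio within pairs was 1.21, 2.09 and 2.31. Tnfrsf1b, which encodes the second TNF receptor, had 1047, 1119 and 1086 in the controls and 1321, 1996 and 2113 after YAP siRNA. Tbc1d30 differed more, at ratios of 1.39, 2.59 and 2.87, while Sh3rf1, a ubiquitin ligase, and Gtf2h4, a subunit of the transcription factor TFIIH, differed less. All 5 shared with Neat1 controls that were close to each other and a smaller difference in replicate 1, which follows from how they were chosen.

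**Figure D5:**
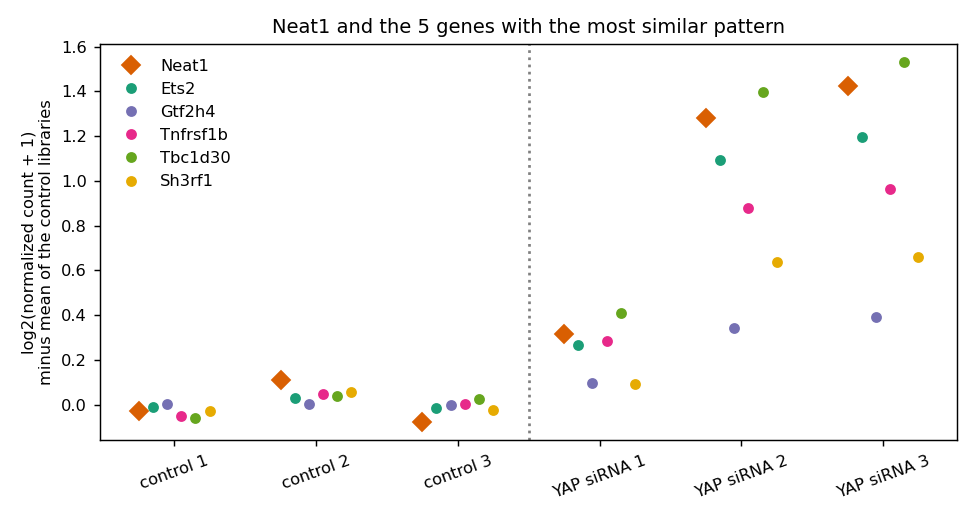
Log2(normalized count + 1) of Neat1 (diamonds) and the 5 genes most like it (circles), each set to 0 at the mean of its 3 control libraries (vertical axis), in the 6 libraries (horizontal axis). All 6 lie near 0 in the controls, a little above in YAP siRNA replicate 1 and well above in replicates 2 and 3.

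The genes most like Malat1 were Snord49a, Rnf181, Endov, Zmiz2 and Zdhhc4, with Pearson correlations of 0.995 to 0.994. Their pattern was that of the replicate number: the level in control replicate 1 was between 0.0781 and 0.672 of the mean of the other controls. It was 0.590 for Malat1. Snord49a, a small nucleolar RNA, had 156, 1439 and 2562 normalized counts in the controls and 119, 1997 and 3742 after YAP siRNA.

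Promoter windows were given by RefSeq (GRCm38.p6) for Malat1, Sfpq, Nono and Pspc1, while the promoter of Neat1 was not analysed here. The core of the motif bound by TEAD factors, the DNA-binding partners of YAP, was searched as CATTCC on both strands. It was in 0 of these 4 windows and in 14.7% of all 32851 windows of the same length, which says only that these letters are not in those windows.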

How the data were processed

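Expression was measured in 6 libraries, 3 per siRNA. Poly(A) RNA was cut to fragments averaging 150 nt, joined to directional adapters and put through 15 PCR cycles, per the labels' protocols. TopHat2 2.0.9, HTSeq 0.6.1, DESeq 1.14.0 and build mm9 are named, with no role, in the submitters' processing notes. Which gene models and strand option were counted, and what was done with multiply matching reads, is not given in the sources used here. The deposited values are a signal scale: each library's gene counts over its own size factor. They were whole multiples, within 0.01 reads, of the value of 1 read (100% of values above 0 in each library), so reads could be recovered.

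The test was limma 3.58.1 (R 4.3.3) with its variance trend, two-sided, on log2(value + 1) of the 12820 genes whose mean reached 10. P-values were Benjamini-Hochberg adjusted over them. There was no covariate; the alternative design had the replicate number as a block. Deviations from the group means correlated at 0.788, 0.705 and 0.532 within the numbers 1, 2 and 3, so the numbers were taken to pair libraries. YAP siRNA replicate 3 correlated slightly more with control 2, at 0.552, and YAP siRNA replicate 2 correlated with control 3 at 0.516. With replicate 1 apart, these values do not settle how replicates 2 and 3 pair, and every call with the block rests on that pairing. No label says what same-numbered libraries share. As alternatives, recovered reads were tested in edgeR 4.0.16 and DESeq2 1.42.0, and limma was rerun with other pseudocounts, filters and scalings and with libraries left out. The members and gene lists were chosen with earlier results of these data known.

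Named genes are the members, Yap1 and the 5 genes most like Neat1 and Malat1, with numbered loci skipped. From each list they are up to 6 genes called, or 2 with the highest mean where none was. Outside this rule, genes called in the blocked design without replicate 1 are named for that call, so after their values were seen. Most others are said to be chosen after their values were seen. Some genes of the lists are counted but not reported by name here. Transcript sequences and lengths are from GENCODE M21 (GRCm38), while the files use mm9, and coordinates are left out for that reason. A gene's longest transcript was cut into words of 31 bases and looked up in annotated pseudogenes.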

Additional observations from a re-analysis of the deposited data

How the results depend on the processing

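The limits are those of 3 libraries per group, of which replicate 1 stands apart, and of gene counts that do not separate the forms of Neat1. Neat1 was higher in all 29 alternative settings, between 0.76 and 1.35 on the log2 scale, and Pspc1 in all 29, between 0.17 and 0.54. Neat1 was chosen because it rose, and its groups did not overlap, so leaving out libraries could not turn its sign. With all libraries, the filter, the variance trend and the block do not move a limma estimate, so those settings could not change either value. Pspc1 passed the threshold in 2 settings, at 0.46 without replicate 1 of both groups, with and without the replicate block. Malat1, Sfpq and Nono passed in none, but turned sign. Leaving out libraries or pairs gave −0.20 to 0.32 for Malat1, −0.054 to 0.022 for Sfpq and −0.72 to 0.93 for Nono. Within these, Sfpq ran from −0.053 to 0.011 over single libraries left out, and Nono was at −0.047 with the block and without replicate 2. Sfpq was at 0.0078 with one total and at 0.010 with quantiles, with or without the replicate block, and Nono at −0.10 in edgeR and −0.11 in DESeq2. The cause was not tested.

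Calls depended on the pairing. Across the table, limma called 0 genes without and 2216 with the replicate block; with the block the count was 2190 and 2235 with pseudocounts of 0.5 and 10, 2137 with no filter, 2152 with a mean of at least 50, 2251 with one total, 2349 with quantiles, 30 without a trend, 2479 in edgeR and 2490 in DESeq2. DESeq2 without the block called 722. Leaving out 1 library gave 0 to 497, the highest without control replicate 1. Leaving out a pair in the blocked design gave 5596, 300.0 and 1128 without replicates 1, 2 and 3, and leaving out replicate 1 of both groups without the block gave 4018. Of the lists, paraspeckle components had 1 call in 8 of the blocked settings with all libraries, and 0 to 9 with libraries left out; speckle genes had 1 in 4 of them, with a pseudocount of 10, a mean of at least 50, one total or quantiles, and 0 to 5. Genes near Neat1 had 5 with the block, 5 or 6 in the other blocked settings but the one without a trend, 1 in DESeq2 without the block, and 0 to 9; other long noncoding RNAs had 2 and 0 to 9; regulators of Neat1 had 3 and 0 to 6. With the block but no trend each list had 0.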
